A study of Homo sapiens with 4 samples.

Results

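The HNRNP and SRSF genes encode the main families of general splicing regulators. The members described here were all protein-coding GENCODE genes on GRCh37 whose symbols begin with HNRNP, or with SRSF followed by a number. There were 37 of them among 20176 protein-coding genes, 25 HNRNP and 12 SRSF genes, on 17 chromosomes. A gene was counted as reduced when a region of reduced H3K4me3 lay within 3 kb of its start, the first base of the gene on its own strand.

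The regions came from native ChIP-Seq of H3K4me3 in MDA-MB-231, an established triple negative breast cancer cell line. Cells were untreated or received Tat-SID at 1 μM or at 2.5 μM, a decoy peptide that joins the SIN3 interaction domain of MAD to the Tat signal for nuclear import and competes for the PAH2 domain of SIN3. Each condition had 1 library, and input DNA was sequenced as the background. Both treated libraries were compared by the authors with the same untreated library, and the untreated cells received no scrambled peptide. The files gave 141 reduced regions at 1 μM and 2063 at 2.5 μM, and 3 increased regions at 2.5 μM, as positions without a height, a fold or a read count. The regions are whole peaks of the mark that the authors called as changed. Their ends, lengths and reach do not show where within a peak the mark fell. The depth behind each region and the size of each reduction are not given in these files, no replicate check was possible, and the cell line could not be checked against its marker genes.

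H3K4me3 is a histone mark found around the starts of genes that are active or poised, above all at promoters rich in CpG dinucleotides. Heterogeneous nuclear ribonucleoproteins (hnRNPs) coat nascent RNA and often block the use of splice sites, while SR proteins, named for their arginine and serine rich domains, bind exonic enhancers and recruit the spliceosome. Many genes of both families carry ultraconserved alternative exons that send their own transcripts to nonsense-mediated decay (NMD), a loop by which the proteins limit their own level.

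At 1 μM, 2 of the 37 genes (5.41%) had a reduced region, HNRNPA2B1 and SRSF3, against 0.496% of all protein-coding genes. At 2.5 μM, 21 of the 37 (56.8%) had one, against 9.50% of all protein-coding genes. The exact Clopper-Pearson 95% interval was 39.5% to 72.9%. It covers only the counting error of a random draw of genes, whereas the 37 are all genes with such symbols. They were chosen with earlier results of these data known. The interval takes the genes as independent although 2 of them share 1 region, and does not measure differences between libraries. The HNRNP genes had 16 of 25 (64.0%) and the SRSF genes 5 of 12 (41.7%). The shares of all protein-coding genes, here and below, include genes that may lack the mark and so could not be called reduced. Which genes carried the mark in untreated cells is not given, so no share among marked genes was taken. None of the 37 lay near an increased region, and the share of all protein-coding genes near one was 0%. Both genes reduced at 1 μM were also reduced at 2.5 μM, as were all 100 protein-coding genes reduced at 1 μM. The 2 genes made up 9.52% of the members reduced at 2.5 μM, beside 5.22% for all protein-coding genes reduced at 2.5 μM. The 21 genes had 20 separate regions, because HNRNPUL2 and the readthrough gene HNRNPUL2-BSCL2 start 73 bp apart under 1 region. In all 21 genes the region covered the gene start itself, as it did in 1853 of the 1917 reduced protein-coding genes.

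Stretches just upstream of the canonical transcript start are shown for the genes reduced at 1 μM, for the other genes with the longest 2.5 μM regions, and for the first gene of each family in symbol order that had no region. They were read from GRCh37 on the strand of each gene, bases inside exons of protein-coding genes were left out, and only 30 bases are shown for HNRNPA2B1, where exons of other transcripts fill the window. Capitals mark the GC box letters (GGGCGG), the letters bound by the factor NF-Y (CCAAT) and the letters of a TATA box (TATAAA), each searched on both strands.
HNRNPA2B1 (chr7:26240451-26240480, minus strand): gagccttcccgccATTGGcggcggataggg
SRSF3 (chr6:36561889-36562129, plus strand): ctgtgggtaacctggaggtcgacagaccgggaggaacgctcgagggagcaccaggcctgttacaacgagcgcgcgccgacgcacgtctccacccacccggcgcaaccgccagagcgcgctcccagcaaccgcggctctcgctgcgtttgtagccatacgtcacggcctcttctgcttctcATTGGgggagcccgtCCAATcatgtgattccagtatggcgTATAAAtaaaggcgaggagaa
HNRNPDL (chr4:83351616-83351742, minus strand): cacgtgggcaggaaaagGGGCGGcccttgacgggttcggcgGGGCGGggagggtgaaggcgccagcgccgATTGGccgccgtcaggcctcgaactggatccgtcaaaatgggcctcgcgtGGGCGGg
HNRNPD (chr4:83295153-83295271, minus strand): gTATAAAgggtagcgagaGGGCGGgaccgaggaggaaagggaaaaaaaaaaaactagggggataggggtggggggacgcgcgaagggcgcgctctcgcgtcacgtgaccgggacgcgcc
HNRNPA1L2, without a region (chr13:53216316-53216565, plus strand): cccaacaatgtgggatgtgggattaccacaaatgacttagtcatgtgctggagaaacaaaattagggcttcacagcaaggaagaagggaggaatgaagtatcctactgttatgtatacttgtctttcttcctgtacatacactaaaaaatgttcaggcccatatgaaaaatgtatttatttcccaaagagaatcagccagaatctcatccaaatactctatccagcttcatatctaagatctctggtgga
SRSF1, without a region (chr17:56084708-56084857, minus strand): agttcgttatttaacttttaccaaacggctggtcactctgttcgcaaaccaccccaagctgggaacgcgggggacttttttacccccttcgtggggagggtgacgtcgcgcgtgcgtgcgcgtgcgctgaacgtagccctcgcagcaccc

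HNRNPA2B1 encodes hnRNP A2 and B1, abundant proteins of nascent RNA that also sort RNAs in transport. Its reduced region spanned chr7:26234801-26246599, 11799 bp, with the same ends at 1 μM and at 2.5 μM. It reached 5450 bp upstream and 6348 bp downstream of the gene start, and held 7 of the 11 exons of the canonical transcript. Of the 1500 reduced regions within 3 kb of a protein-coding gene start at 2.5 μM, 18 were longer, and of the 82 at 1 μM, 12 were longer. The start of CBX3, which encodes the heterochromatin protein HP1 gamma and is read from the other strand, lay 367 bp inside the HNRNPA2B1 gene under the same region at both doses. The reduction cannot be divided between these 2 genes.

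SRSF3 encodes the smallest SR protein, which also takes part in mRNA export. Its region at 1 μM was chr6:36560251-36568849, 8599 bp, and at 2.5 μM it began 50 bp further upstream and was 8649 bp long. At the higher dose it took in 1929 bp before the start and 6719 bp of the transcribed part, covered 59.7% of the gene, and held 3 of its 6 canonical exons. The start of no other annotated gene lay inside it. In the stretch printed above, SRSF3 holds a TATAAA that begins 30 bp before the canonical start and CCAAT letters at 55 bp and, on the reverse strand, at 70 bp.

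**Figure D1:**
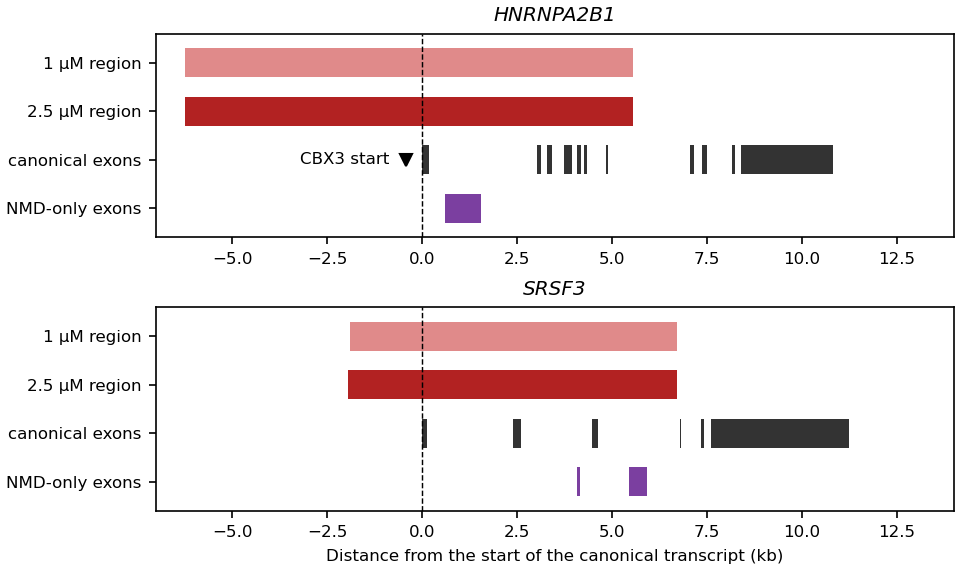
Map of the 1 μM and 2.5 μM reduced regions (bars) and the exons of the canonical transcript at HNRNPA2B1 and SRSF3, with the CBX3 start as a triangle. NMD-only blocks are exon blocks of NMD transcripts that overlap no exon of a protein-coding transcript. All are drawn to scale as distance in kb from the canonical transcript start. The regions of the 2 doses coincide at HNRNPA2B1 and differ by 50 bp at SRSF3, and cover 1 and 2 NMD-only blocks (2 further HNRNPA2B1 blocks lie beyond the right edge).

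Of the 6 genes of the hnRNP A/B family, which bind UAG-containing RNA and repress splice sites, 4 were reduced at 2.5 μM. HNRNPA1, the best known antagonist of SR proteins in splice site choice, had a region of 7199 bp (chr12:54671451-54678649) that covered 67.8% of the gene and 10 of its 11 canonical exons. CBX5, which encodes HP1 alpha, starts 60 bp away on the other strand under the same region. HNRNPA3 had a region of 5999 bp (chr2:178074901-178080899) with 3 of 11 exons inside. HNRNPA0, a gene with 1 exon whose protein binds AU-rich mRNAs, had 4449 bp (chr5:137086751-137091199), and no other gene started inside it. The members without a region were HNRNPA1L2, a gene with 1 exon whose nearest region at 2.5 μM lay 8.23 kb from its start, and HNRNPA1L3, with the nearest region 1654 kb from its start. Both are copies of HNRNPA1, and reads can be shared between such copies.

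The hnRNP D family had 2 of 3 genes reduced. HNRNPD, which encodes the AU-rich element binding protein AUF1, had a region of 7749 bp (chr4:83290051-83297799), and the start of the lncRNA HNRNPD-DT lay 361 bp inside the gene on the other strand. HNRNPDL, its neighbour in sequence and on the chromosome, had 8849 bp (chr4:83344751-83353599), the longest extent downstream of a gene start among the members at 6864 bp. The HNRNPDL region covered 86.9% of the gene with 7 of its 8 exons, and included the start of ENOPH1, an enzyme of methionine salvage, 128 bp upstream. HNRNPAB, the third gene of the family, had its nearest region 420 kb from the gene start.

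The F/H family, whose proteins bind G-rich RNA, had 3 of 4 genes reduced by the gene start. HNRNPF had a region of 7149 bp (chr10:43898901-43906049), HNRNPH3 7399 bp (chr10:70089701-70097099) and HNRNPH2 4499 bp (chrX:100661251-100665749). HNRNPF shared its region with no other start, whereas HNRNPH2 shared it with GLA, the lysosomal alpha-galactosidase, 210 bp upstream, and HNRNPH3 with PBLD. HNRNPH1 was not counted, because its annotated gene start lay 9.79 kb from the nearest region. That region, chr5:179045851-179051999, was 6149 bp long and covered the start of the canonical HNRNPH1 transcript, which lies 11113 bp inside the gene, with 1327 bp upstream of it and 4821 bp downstream. By the canonical start all 4 genes of the F/H family had a reduced region, as had 23 of the 37 members (62.2%) and 9.91% of all protein-coding genes.

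Of the 3 hnRNP C genes, HNRNPC was reduced, with 7099 bp (chr14:21731401-21738499). HNRNPC measures the length of nascent RNA and guards introns against the use of cryptic exons. Its region reached only 846 bp upstream but 6252 bp downstream of the start. HNRNPCL1 and HNRNPCL2, copies on chromosome 1, had no region within 3286 kb, and reads can be shared between such copies.

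HNRNPK, which binds C-rich RNA and single-stranded DNA, had 6249 bp (chr9:86591701-86597949), shared with RMI1, a gene of the Bloom syndrome helicase complex that starts 167 bp away. HNRNPR, a relative of SYNCRIP, had 5699 bp (chr1:23666601-23672299). In the hnRNP U family of nuclear scaffold proteins, HNRNPU had 5949 bp (chr1:245023501-245029449) and HNRNPUL2 had 7099 bp (chr11:62491051-62498149), shared with TTC9C and with the readthrough gene, while the HNRNPUL1 start was 35.1 kb from the nearest region. In the L family, which binds CA repeats, HNRNPLL, a regulator of CD45 splicing in lymphocytes, had 5149 bp (chr2:38826201-38831349), and HNRNPL had its gene start 198 kb, and its nearest transcript start 183 kb, from any region. HNRNPM had none within 864 kb of any of its transcript starts. HNRNPL, HNRNPM and HNRNPUL1 are the members on chromosome 19, where 2.70% of all protein-coding genes were reduced at 2.5 μM.

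Besides SRSF3, 4 of the SRSF genes were reduced at 2.5 μM. SRSF2, which encodes SC35 and is a marker of nuclear speckles, lay wholly inside its region of 7299 bp (chr17:74728501-74735799), the only member with 100% of the gene covered. MFSD11 starts 1468 bp inside SRSF2 from the other strand, and the host region also holds MIR636. SRSF10, a splicing repressor when dephosphorylated, had 4999 bp (chr1:24303401-24308399) and shared it with no other start. SRSF8, a retrocopy of SRSF2, had 4199 bp (chr11:94799151-94803349), the shortest of the 20 regions found by gene starts, and reads can be shared between SRSF8 and SRSF2.

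SRSF11 had 2 separate regions. One of 4299 bp (chr1:70669401-70673699) covered the annotated gene start together with that of LRRC40, 103 bp away on the other strand. The other, 3399 bp (chr1:70686201-70689599), covered the canonical transcript start 15698 bp further downstream. SRSF5 was not counted by its gene start, 39.5 kb from the nearest region, but its canonical start, 40242 bp inside the annotated gene, lay in a region of 2899 bp (chr14:70233151-70236049), where 1459 of the 1500 regions near protein-coding gene starts were longer.

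The SRSF genes with no region at any transcript start were SRSF1, the prototype SR protein SF2/ASF, and SRSF4, SRSF6, SRSF7, SRSF9 and SRSF12. Their nearest 2.5 μM regions lay 405 kb from the gene start for SRSF1, 671 kb for SRSF4, 749 kb for SRSF6, 147 kb for SRSF7, 29.9 kb for SRSF9 and 34.2 kb for SRSF12. A gene without a region may hold the mark unchanged, have changed without passing the threshold of the authors, or lack the mark, and the files do not tell these apart.

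**Figure D2:**
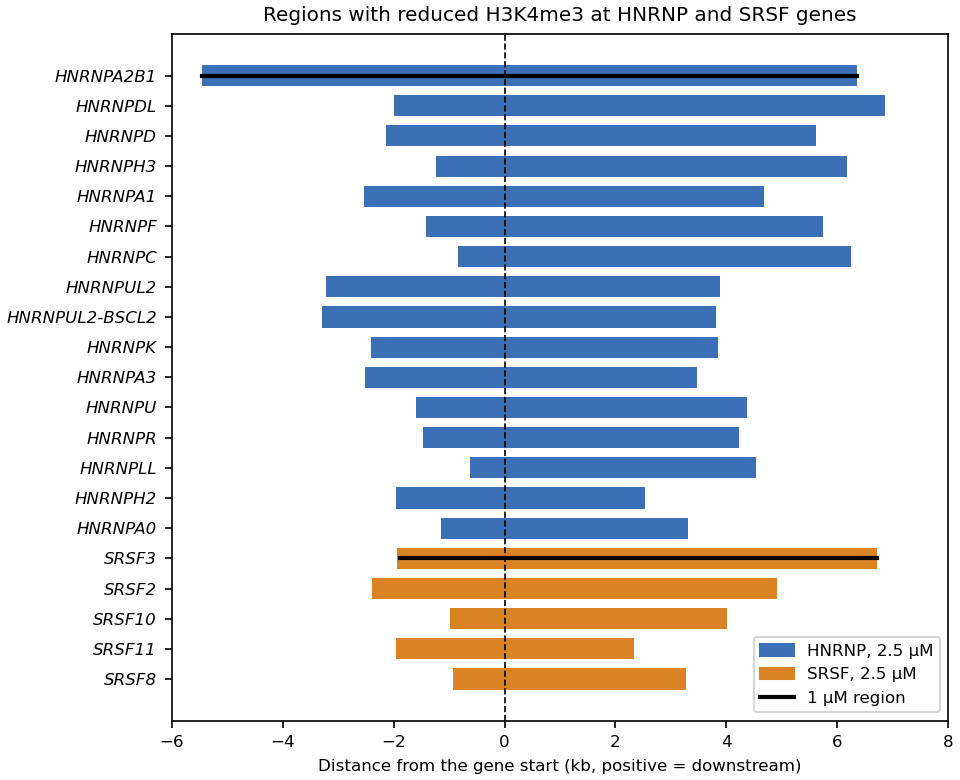
Extent of each reduced region around the gene start (0 on the x axis, distance in kb, positive downstream) for the 21 reduced genes, HNRNP in blue and SRSF in orange at 2.5 μM, with the 1 μM regions as black lines. In all 21 the region reaches further downstream than upstream of the gene start, from 2334 bp at SRSF11 to 6864 bp at HNRNPDL. From the canonical transcript start this does not hold for HNRNPA2B1 and for the SRSF11 region drawn here.

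The regions of the members were compared in length with all reduced regions near protein-coding genes. The 20 member regions at 2.5 μM ran from 4199 to 11799 bp with a median of 6674 bp, and the 1500 regions within 3 kb of a protein-coding gene start ran from 2099 to 17749 bp with a median of 5149 bp. For 15 of the 21 genes the region was longer than that median. HNRNPLL was equal to it, and HNRNPA0, HNRNPH2, SRSF8, SRSF10 and SRSF11 were below it. The median was 7099 bp over the 15 HNRNP regions and 4999 bp over the 5 SRSF regions, and their ranges overlapped. Measured from the gene start, the longer side of the regions was downstream, with a median extent of 1959 bp upstream and 4361 bp downstream. From that start all 21 reached further downstream. Among the 1853 reduced protein-coding genes whose region covered the start, 77.4% did, with medians of 1744 and 3200 bp. This does not hold from every canonical transcript start. The HNRNPA2B1 region reached 6233 bp upstream and 5565 bp downstream of its canonical start. The SRSF11 region at the gene start lay wholly upstream of the canonical start. The share over all protein-coding genes was not counted from canonical starts. More than 50% of the gene was covered in 6 members, HNRNPA1, HNRNPDL, HNRNPH3, SRSF2, SRSF3 and SRSF8.

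**Figure D3:**
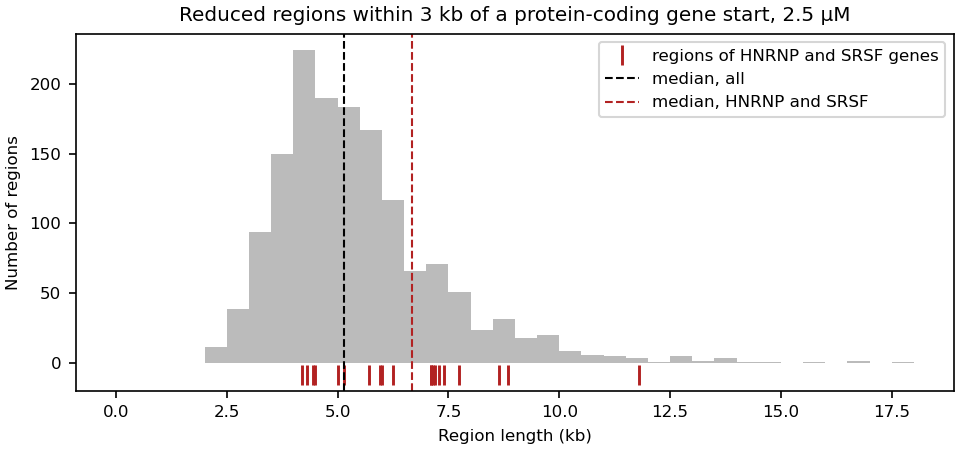
Histogram of the lengths in kb of the 1500 reduced regions within 3 kb of a protein-coding gene start at 2.5 μM, with the 20 regions of HNRNP and SRSF genes as red ticks under it and both medians as dashed lines. The member regions sit mostly to the right of the median of 5149 bp, and the longest is that of HNRNPA2B1 at 11799 bp.

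Several members share a promoter with a neighbouring gene. Of the 21 reduced genes, 10 (47.6%) had the start of another protein-coding gene inside the region or within 3 kb of its ends. The share among the 1917 reduced protein-coding genes was 41.0%. In the 10 members the other start lay inside the region, and the reduction cannot be divided between the neighbours. No other annotated start lay inside the regions of HNRNPA0, HNRNPC, HNRNPF, HNRNPR, SRSF3, SRSF8 and SRSF10, or within 3 kb of their ends. These genes are 33.3% of the 21, against 28.4% of all reduced protein-coding genes. Of the 9 members with a protein-coding neighbour that starts within 1 kb on the other strand, 8 were reduced, and of the 28 without one, 13 (46.4%). HNRNPUL2 and its readthrough gene, which share 1 region and the neighbour TTC9C, are both counted in the 8 and in the 10. The corresponding shares over all protein-coding genes were 20.1% and 7.87%.

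The counts were also read within promoters of like base composition. A CpG promoter was taken as GC content over 50% and an observed to expected CpG ratio over 0.6 within 1 kb of the gene start. Such a promoter was found at 73.0% of the members and 46.8% of all protein-coding genes. The 27 members with a CpG promoter included 17 reduced at 2.5 μM (63.0%), and 13.9% of all protein-coding genes with a CpG promoter were reduced. Of the 10 members without one, HNRNPC, HNRNPH2, SRSF8 and SRSF11 were reduced (40.0%), and 5.63% of all protein-coding genes without one. Among these 10, HNRNPH1, SRSF5 and SRSF11 have canonical starts 11113, 40242 and 15698 bp inside the gene, where the CpG class was not read. HNRNPH1 and SRSF5 count here as not reduced, although a region covers their canonical starts. At 1 μM both reduced members had a CpG promoter, where 0.763% of all such genes were reduced. The reduced members had a median GC content of 57.4% and a median CpG ratio of 0.88, and the 10 CpG promoter members without a region, SRSF1 and SRSF6 among them, had 59.9% and 0.86, with ranges that overlapped.

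**Figure D4:**
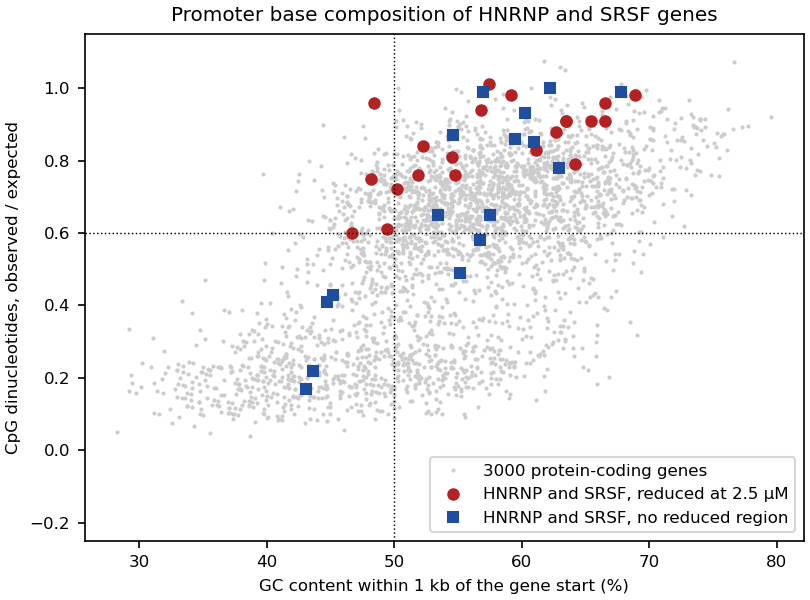
GC content in percent against the observed to expected CpG ratio within 1 kb of the gene start for the HNRNP and SRSF genes, reduced at 2.5 μM (red circles) or without a region (blue squares), over 3000 randomly drawn protein-coding genes (grey), with the CpG promoter limits of 50% and 0.6 dotted. Reduced members lie between ratios of 0.60 and 1.01, and the 6 members with ratios of 0.58 or less have no region at the gene start.

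Motif letters were counted from 250 bases before to 50 bases after the gene start, on both strands. CCAAT was in 15 of the 21 reduced members (71.4%) and 6 of the other 16 (37.5%), beside 35.8% of all protein-coding promoters and 39.9% of those of reduced genes. Around the canonical start, CCAAT was in 16 of the 21 (76.2%) and again in 6 of the 16, beside 36.0% of all promoters and 39.5% of those of reduced genes. Of the reduced members, HNRNPD, HNRNPF, HNRNPH3, SRSF10 and SRSF11 had none there. In HNRNPA2B1 and HNRNPDL it stands on the reverse strand, beginning 101 and 57 bp before the canonical start in the stretches printed above. GGGCGG was in 16 of the 21 (76.2%) and 8 of the other 16 (50.0%), beside 52.2% of all promoters and 61.8% of those of reduced genes. Around the canonical start GGGCGG was in 15 of the 21 (71.4%), beside 72.4% of the promoters of reduced genes, and in 62.2% of all 37 members, beside 61.0% of all promoters. TATAAA was in 5 of the 21 (23.8%) and 1 of the 16, beside 10.9% of all, and around the canonical start in 5 of the 21 and 2 of the 16, beside 9.79%. The ETS letters CCGGAAG were in 2 of the 37 and the NRF1 letters GCATGCGC in 1, beside 11.8% and 3.77% of all promoters, and the YY1 letters AAGATGG were in none, beside 5.64%. Around the canonical start CCGGAAG was in 5 of the 37 (13.5%), beside 14.0% of all promoters, GCATGCGC was in 3 (8.11%), beside 4.26%, and AAGATGG was again in none, beside 6.45%. These are matches of letters in the reference, with no binding measured, and HNRNPUL2 and its readthrough gene share most of their window.

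The regions were set against exons of NMD transcripts. In the annotation, 27 of the 37 members had an NMD transcript, 16 of the reduced and 11 of the others. In 15 members, 29 exon blocks of NMD transcripts overlapped no exon of a protein-coding transcript. Overlap with other transcript types was not checked, and whether the blocks lead to NMD was not tested. The shares over all protein-coding genes, for such transcripts and for blocks inside a region, were not counted. Of these blocks, 5 lay inside a 2.5 μM region, in 4 genes. HNRNPA2B1, with 35 NMD transcripts of 49, had a block of 954 bp (chr7:26238809-26239762) inside the region of both doses. SRSF3 had blocks of 98 bp (chr6:36566206-36566303) and 456 bp (chr6:36567598-36568053) inside the regions of both doses. SRSF10 had 1 of 363 bp (chr1:24304401-24304763), and HNRNPH1 1 of 134 bp (chr5:179048844-179048977) inside the region at its canonical start. The blocks of the other reduced genes, HNRNPLL, HNRNPR, HNRNPU and SRSF11, lay outside their regions.

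Other splicing genes gave a scale for these counts. SR-related proteins and the kinases of SR proteins had 17 of 37 genes reduced at 2.5 μM (45.9%). They included TRA2B, a sequence-specific activator of exons, with 10749 bp of which 10440 bp lay downstream of the start, DYRK1A with 7299 bp, RSRC2 with 6449 bp and the speckle protein gene SON with 6299 bp. Other hnRNP and hnRNP-like proteins had 5 of 31 (16.1%), namely FUBP1 with 6849 bp, TIAL1 with 6349 bp, TIA1 and PTBP3 with 4899 bp each, and PTBP2 with 3949 bp. The U1 and U2 snRNP, SF3 and U2AF genes, which recognise splice sites, had 5 of 40 (12.5%), with DDX5 at 6299 bp, SF3B3 at 6099 bp, SF3A2 at 5849 bp, SF3B1 at 4249 bp and SNRPD1 at 3599 bp. Genes of the tri-snRNP, the NTC and later spliceosome had 5 of 43 (11.6%), with SLU7 at 8949 bp, SART3 at 5049 bp, CDC40 at 4999 bp, PRPF38B at 4899 bp and CWC27 at 4349 bp. Tissue splicing regulators had 3 of 31 (9.68%), QKI with 8049 bp, MBNL2 with 4249 bp and CELF2 with 3849 bp. The regions of SREK1 and CLK4 among the SR-related genes, and those of CWC27, MBNL2 and CELF2, lay beside the gene start without covering it, so that 15 SR-related genes had a region over the start. Over all 182 genes of these lists, 35 (19.2%) were reduced at 2.5 μM and 2 (1.10%) at 1 μM, FUBP1 with the same region at both doses and SRPK1, the kinase that phosphorylates SR proteins, with 5999 bp at 1 μM and 5749 bp at 2.5 μM. Among genes with a CpG promoter alone, 50.0% of the SR-related genes were reduced, 15.4% of the other hnRNP genes, 10.0% of the U1 and U2 list, 9.09% of the tri-snRNP list and 5.00% of the tissue regulators, beside 63.0% of the members and 13.9% of all protein-coding genes.

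**Figure D5:**
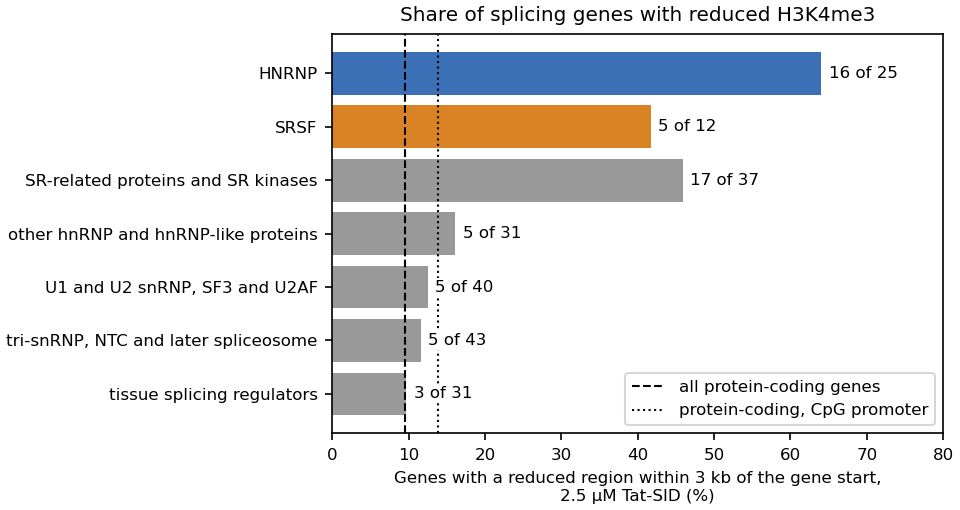
Percent of genes with a reduced region within 3 kb of the gene start at 2.5 μM, from 0, for the HNRNP and SRSF genes and 5 other splicing gene lists, with the number reduced of the number in each list beside the bar. The dashed line marks all protein-coding genes (9.50%) and the dotted line those with a CpG promoter (13.9%). The HNRNP (64.0%), SR-related (45.9%) and SRSF (41.7%) bars lie furthest to the right.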

How the data were processed

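Native H3K4me3 ChIP-Seq libraries were prepared from MDA-MB-231 cells left untreated or given Tat-SID at 1 μM or at 2.5 μM, with an input library as background and 1 library per condition. The authors checked reads with FastQC 0.10.0, aligned them to GRCh37 with Bowtie 1.0.0 and called regions of decreased or increased signal against the untreated library with SICER-df. MACS2 2.1.0 is also named in the submitters' processing notes. The deposited values are region positions only, with no signal, score or p-value, so no test between conditions was run. The depth of each library is not given in these files, and the study's summary of read quality was not used here. By the paper's Bowtie settings, reads that match several places were kept up to a limit, with 1 alignment reported for each. A read common to near-identical gene copies could thus be placed at any of them. This can affect HNRNPA1L2, HNRNPA1L3, HNRNPCL1, HNRNPCL2 and SRSF8, and how many such reads there were is not given.

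Regions were intersected with GENCODE release 44 on GRCh37 in Python 3.11.15, by an overlap of at least 1 bp with the 3 kb on either side of each gene start. The intersection was tested on simulated regions. Promoter composition and motifs were read from the GRCh37 genome with pysam 0.24.0 for 20157 protein-coding genes, and exact intervals with scipy 1.17.1. The members and gene lists were chosen with earlier results of these data known. All members were named, and from each other list those reduced at 1 μM and the 4 with the longest 2.5 μM regions, to which PTBP2, SNRPD1 and CWC27 were added after their values were seen, to complete counts of 5 genes. Alternatives changed the window, the gene start, the gene set, the shortest region and the merging of regions. Protein sequences were not analysed here.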

Additional observations from a re-analysis of the deposited data

How the results depend on the processing

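Under the 9 alternatives run for the members as a whole, the number reduced stayed at 2 at 1 μM and ranged from 20 to 23 at 2.5 μM, or 55.6% to 62.2% of the genes counted. A window of 10 kb gave 23 by adding HNRNPA1L2 and HNRNPH1, and the starts of every transcript gave 23 by adding HNRNPH1 and SRSF5. Leaving out the readthrough gene gave 20. The share of all protein-coding genes reduced at 2.5 μM moved from 9.50% to 10.2% with the window of 10 kb and to 10.8% with every transcript start. When the region had to cover the start base, 1 tissue splicing regulator was counted in place of 3, since the alternative counts fewer positions. The starts of the canonical transcripts, the windows of the canonical starts for motifs and the readthrough gene were chosen as alternatives after seeing the data. A stricter threshold was not run, because the regions carry no value. No paired analysis was possible because there was only 1 library for each dose. The files do not give the depth, and whether a gene without a region was missed for lack of reads was not tested.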

Other observations

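The annotation holds 136 pseudogenes named after HNRNP or SRSF genes. At 1 μM 0 of them had a reduced region at the start and at 2.5 μM 1 had, the processed pseudogene HNRNPKP4 (chr3:96068398-96069783), whose region of 5049 bp (chr3:96064751-96069799) held no other annotated start. The share over all annotated pseudogenes was not counted, so these counts have no scale beside them. HNRNPK, its parent, had a region of 6249 bp at 2.5 μM, and whether reads were shared between parent and copy was not tested.

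Among the members with the most annotated transcripts, HNRNPA1 had 84, HNRNPA2B1 and HNRNPH1 49 each, HNRNPK 34, and HNRNPC and HNRNPU 32 each. All 6 had a 2.5 μM region over the canonical transcript start, near which 62.2% of the members and 9.91% of all protein-coding genes had one. No planned rule ended the list at these 6. HNRNPUL1, next with 21 transcripts, had no region there. HNRNPA3 and SRSF5 with 19, HNRNPD and SRSF11 with 18 and SRSF10 with 16 had one. HNRNPM with 16 and HNRNPL with 15 had none. The members with 1 transcript were HNRNPA0, HNRNPH2 and HNRNPUL2-BSCL2, which were reduced, and HNRNPA1L2, HNRNPCL1 and HNRNPCL2, which were not.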
